A study of Rattus norvegicus with 12 samples.

Results

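Gene expression in rat hepatocytes isolated 30 h after the death of the donor was compared with that in hepatocytes isolated 4 h after death. The comparison used 6 of the 12 arrays of the study, 3 from each time, chosen by the time after death in the sample titles, and covered every probe set tied to 1 gene symbol, which came to 14217 genes. Each array held biotin-labelled RNA from the liver of 1 donor rat. The other 6 arrays came from heart-beating donors and from donors dead for 16 h, 3 of each, and entered the same model. They add to its estimate of the spread between animals and to the choice of probe sets, and their levels are given for reference. All donors carried the same strain label, Fischer 334, and the labels used here state neither sex nor age. In every group the liver was perfused with collagenase in 2 steps and the cells went straight to RNA extraction with no culture, so each sample is what this isolation recovered from a liver, and not a sorted cell type. All values below are log2 signals normalised between arrays, with n = 3 animals per group, and a difference is the 30 h mean minus the 4 h mean with its standard error (SE) from the model. Genes were called at a Benjamini-Hochberg adjusted p under 0.05 from limma, which fits a linear model to each gene and shares variance estimates between genes.

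Hepatocytes make most plasma proteins, break down amino acids, synthesise lipids and bile acids, and hold many mitochondria to pay for this work. After the circulation stops, oxygen and nutrients run out, ATP falls and transcription slows, while RNA already made is degraded at a rate that differs between transcripts. The defining markers of the labelled cell type were present at both times. Alb, which encodes serum albumin, read 14.49, 14.50 and 14.50 at 4 h and 14.49, 14.51 and 14.49 at 30 h, close to the ceiling of the scale, with a difference of -0.0006 ± 0.05. Cps1, the enzyme that feeds ammonia into the urea cycle, read 13.05, 13.12 and 13.08 at 4 h and 13.20, 13.20 and 13.17 at 30 h on its brightest probe set, a difference of 0.10 ± 0.06 that did not pass the test (adjusted p = 0.24). It passed after cyclic loess (0.28) and with an added quantile normalization (0.20), and its other probe set was called lower, so that the mean of both probe sets was -0.83 and the direction for this gene depends on the probe set. Alb read above 4 h by 0.24 after cyclic loess, where it was called.

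RNA integrity differed between the 6 arrays in the same direction as the comparison. The array carries control probe sets at the 3′ end, the middle and the 5′ end of Gapdh and Actb, and since labelling starts at the 3′ end, broken RNA loses signal towards the 5′ end. For Gapdh, the 3′ signal lay above the 5′ signal by 0.46, 0.27 and 0.42 log2 units on the 4 h arrays and by 2.31, 1.82 and 1.79 on the 30 h arrays. The groups did not overlap, and the difference of 1.59 had an exact two-sided permutation p of 0.1, the smallest that 3 against 3 arrays can give. At the 3′ end itself Gapdh differed by 0.003, against -0.89 in the middle and -1.58 at the 5′ end. For Actb the corresponding differences were -0.47, -1.38 and -1.63. What part this had in the differences of single genes was not tested. The Gapdh 3′ to 5′ difference of each array was also entered as a covariate in the model. Its values do not overlap between 4 h and 30 h, so this fit cannot separate RNA integrity from time after death. The median SE of the called genes went from 0.10 to 0.33, and limma called no gene (smallest adjusted p 0.149). Unadjusted limma p-values lay below 0.05 for 2496 genes with the covariate and for 4965 without it. The median difference over all genes moved upwards, from -0.0002 to 0.0768. In this fit 86.85% of the genes called higher stayed above 0 and 40.16% of the genes called lower stayed below 0. These shares do not measure the part of RNA integrity.

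**Figure D1:**
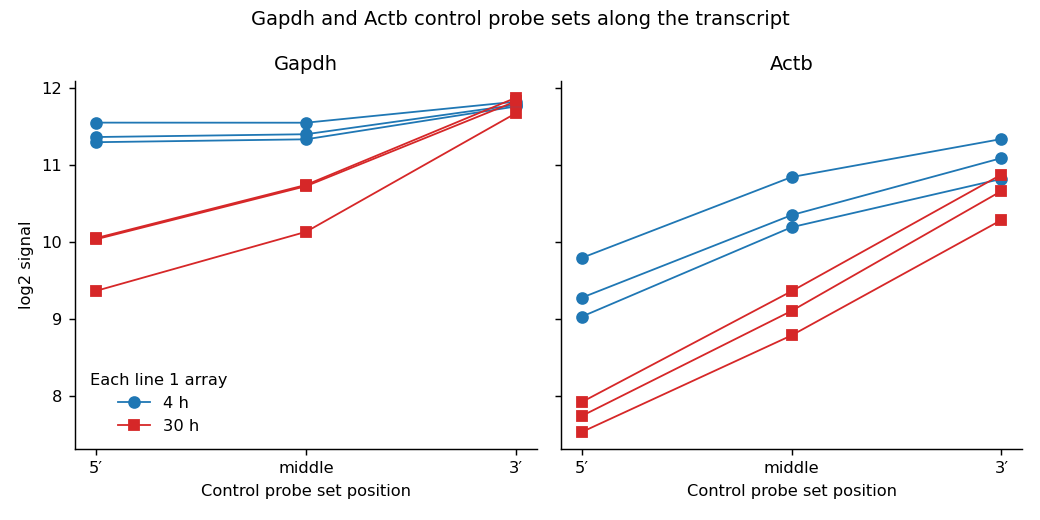
Log2 signal (vertical axis) of the control probe sets at the 5′ end, the middle and the 3′ end of Gapdh (left) and Actb (right), with 1 line per array for 3 donors at 4 h (blue) and 3 at 30 h (red). The Gapdh lines meet at the 3′ end, where the means differ by 0.003, and part towards the 5′ end, where they differ by -1.58.

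Of the 14217 genes, 3391 (23.9%) were called between 30 h and 4 h, 1932 higher (13.6%) and 1459 lower (10.3%). The 2 directions differed in size. A change of at least 2-fold, a log2 difference of 1 or more, was called in 146 genes (1.03%), of which 110 were lower (0.774%) and 36 higher (0.253%). The count of 2-fold falls went to 61 without 30 h animal 1, and the count of 2-fold rises to 57 without 30 h animal 3. The 3 arrays of one time all lay beyond the 3 of the other in 5100 genes (35.9%). On the same scale and in the same model, 1511 genes (10.6%) were called between 16 h and 4 h, and 1821 (12.8%) between 30 h and 16 h. The 3 arrays of 4 h correlated with each other at 0.9949 or more, and those of 30 h at 0.991 or more. The median SD between animals was 0.085 and 0.124 in turn.

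The largest fall was that of Mug1, which encodes murinoglobulin, a plasma inhibitor of proteases of the alpha-macroglobulin family. Its log2 signal was 8.89, 9.25 and 9.58 at 4 h and 5.05, 5.11 and 4.81 at 30 h, a difference of -4.25 ± 0.31, or 19.1-fold (adjusted p = 9.66e-06). All 3 animals at 30 h lay more than 3 log2 units under all 3 at 4 h, and the 16 h mean of 7.39 stood between the 2 times. The 30 h values of Mug1 were dim, under the median signal of every array (5.83 to 5.90). Scd2, a stearoyl-CoA desaturase that makes monounsaturated fatty acids, gave 10.18, 10.87 and 10.999 at 4 h and 6.79, 6.53 and 7.39 at 30 h, with 13.8-fold lower signal at 30 h (-3.78 ± 0.39, adjusted p = 8.15e-05), and its 3 other probe sets were called lower too. Here the 4 h group was the one that stood apart, since the means were 7.604 in heart-beating donors and 5.92 at 16 h. Scd2 was the 1 gene of 14217 (0.00703%) called between 4 h and heart-beating donors (3.08 higher, adjusted p = 0.0435). Serpina7, the thyroxine-binding globulin of plasma, read 7.80, 7.94 and 9.16 at 4 h and 6.003, 5.78 and 5.18 at 30 h, with means of 7.39 in heart-beating donors and 8.03 at 16 h. Cpa1, a pancreatic carboxypeptidase, read 10.58, 11.63 and 11.05 at 4 h and 8.26, 7.74 and 9.65 at 30 h with means of 9.64 and 9.67. Stac3, a muscle adaptor protein, read 6.44, 8.30 and 9.34 at 4 h and 5.42, 5.51 and 5.67 at 30 h with means of 5.94 and 5.79. All 3 genes had their highest mean at 4 h, not called against heart-beating donors, and the 4 h values of Stac3 spanned nearly 3 log2 units between animals. Their differences between 30 h and 4 h were -2.64 ± 0.50, -2.53 ± 0.51 and -2.49 ± 0.54 (adjusted p = 0.00231, 0.00304 and 0.00504).

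Most of the other large falls began from a 4 h level near that of heart-beating donors. Cd36, a scavenger receptor that takes up fatty acids, read 9.59, 9.39 and 9.06 at 4 h and 6.72, 7.24 and 6.99 at 30 h, a difference of -2.36 ± 0.24 (adjusted p = 7.5e-05). Msra, which repairs oxidised methionine, read 7.03, 7.56 and 7.21 at 4 h and 5.11, 5.19 and 5.09 at 30 h (-2.13 ± 0.15, adjusted p = 9.66e-06). Its 3 nearly equal values at 30 h were dim, under the median signal of every array (5.83 to 5.90). The chemokine gene Ccl6 read 10.66, 10.27 and 10.53 at 4 h and 8.05, 8.27 and 8.97 at 30 h (-2.06 ± 0.20). No array of these 3 genes overlapped between the times. Tmem14c, a mitochondrial protein needed for heme synthesis, read 10.29, 10.45 and 10.13 at 4 h and 7.49, 8.72 and 8.63 at 30 h (-2.01 ± 0.25). The ATP synthase subunit gene Atp5pb read 11.94, 12.06 and 12.04 at 4 h and 9.46, 10.28 and 10.31 at 30 h (-2.00 ± 0.18), and Micos13, part of the complex that shapes the cristae, read 10.60, 10.73 and 10.49 at 4 h and 8.10, 8.86 and 8.94 at 30 h (-1.97 ± 0.18). In all 3 of these mitochondrial genes, 30 h animal 1 was the lowest array. It had the widest Gapdh 3′ to 5′ difference but the narrowest Actb 3′ to 5′ difference of the 30 h arrays (2.75, against 2.92 and 2.95). A link between these controls and the gene values was not tested. Bhmt, which remethylates homocysteine to methionine with betaine, read 11.48, 11.72 and 11.74 at 4 h and 9.35, 9.66 and 10.11 at 30 h (-1.94 ± 0.19). The remaining 3 of the 15 largest falls were Uqcrc2, a core subunit of respiratory complex III (-1.76 ± 0.12), Atp5mg of the ATP synthase (-1.72 ± 0.18) and Qdpr, which regenerates tetrahydrobiopterin (-1.64 ± 0.16). The second probe set of Uqcrc2 was called lower too, while the others of these genes, apart from Scd2, had 1 probe set each. With the Gapdh covariate, which raised the median SE of the called genes to 0.33, no gene was called. In that fit the differences were -3.89 for Scd2, -3.60 for Serpina7, -2.54 for Mug1, -1.22 for Msra, -0.99 for Cd36, -0.87 for Stac3 and -0.66 for Uqcrc2. They were -0.48 for Cpa1, -0.37 for Ccl6, -0.17 for Bhmt and -0.024 for Micos13. Differences above 0 were those of Tmem14c (0.75), Atp5mg (0.32), Atp5pb (0.15) and Qdpr (0.08), and none of these genes was called.

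The rises were smaller. Nrep, the neuronal regeneration related protein gene, gave 7.64, 8.65 and 7.96 at 4 h and 10, 10.24 and 9.99 at 30 h, a difference of 2.00 ± 0.28 or 3.99-fold (adjusted p = 0.000377). The animals of the 2 times did not overlap, and the 16 h mean was 8.53. Mest, an imprinted gene, read 5.42, 5.22 and 5.56 at 4 h and 6.92, 6.89 and 6.73 at 30 h (1.45 ± 0.27, adjusted p = 0.00198), and Cyp7a1, the rate-limiting enzyme of bile acid synthesis, read 9.97, 9.49 and 9.29 at 4 h and 11.01, 11.44 and 10.57 at 30 h (1.42 ± 0.34, adjusted p = 0.00839). For both, the 16 h means of 7.12 and 11.85 were above those at 30 h. Ppp1r3b, which brings a phosphatase to glycogen in liver, read 9.80, 10.03 and 9.19 at 4 h and 10.99, 11.05 and 11.11 at 30 h (1.38 ± 0.25, adjusted p = 0.00174), with the 30 h animals close to each other. With the mean of both its probe sets the difference was 0.54 and was not called. Csad, which makes taurine from cysteine sulfinate, read 8.77, 9.19 and 8.24 at 4 h and 9.75, 10.56 and 10.36 at 30 h (1.49 ± 0.50, adjusted p = 0.0467). The call of Csad rested near the threshold and ended in 9 of the 12 fits that left out 1 array: without any 1 of the 4 h or 16 h animals, heart-beating animal 3, or 30 h animal 2 or 3, with differences from 1.24 to 1.72.

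Col3a1, a fibrillar collagen, read 9.48, 9.16 and 9.63 at 4 h and 11.04, 10.84 and 10.48 at 30 h (1.36 ± 0.20, adjusted p = 0.000496). Pik3c2a, a class II phosphoinositide kinase, rose with little spread and read 7.17, 7.18 and 7.19 at 4 h and 8.64, 8.70 and 8.33 at 30 h (1.38 ± 0.09, adjusted p = 7.48e-06), but its second probe set was called lower. Dusp6, a phosphatase that switches off ERK, read 9.11, 9.08 and 9.47 at 4 h and 10.60, 10.34 and 10.30 at 30 h (1.19 ± 0.20), and Me1, the malic enzyme that supplies NADPH for fatty acid synthesis, read 8.398, 8.49 and 8.64 at 4 h and 9.54, 10.32 and 9.24 at 30 h (1.19 ± 0.26). A second probe set of both was called higher as well. Abcc3, a basolateral exporter of bile acids and glucuronides, read 7.43, 7.34 and 7.68 at 4 h and 8.86, 8.77 and 8.48 at 30 h (1.21 ± 0.20). Hells, a chromatin remodeller of the SNF2 family, was dim at both times, with 4.16, 4.28 and 4.22 at 4 h and 5.38, 6.03 and 4.93 at 30 h (1.23 ± 0.24). The other 4 of the 15 largest rises were Tmed5, a cargo receptor of the secretory pathway (1.33 ± 0.15), Ccdc141 (1.29 ± 0.16), Mab21l3 (1.24 ± 0.19) and Mga, a MAX-binding transcription factor (1.19 ± 0.16). Several rises began from a 4 h mean under that of heart-beating donors, though not called against it. Heart-beating and 4 h means were 9.01 and 8.08 for Nrep, 9.53 and 8.73 for Csad, and 9.25 and 8.51 for Me1. For Cyp7a1 they were 10.33 and 9.58, for Mest 6.09 and 5.40, and for Col3a1 10.03 and 9.42. For Mga they were nearly equal, at 5.95 and 5.98. The heart-beating animals differed widely from each other in Csad (7.98, 10.56 and 10.04) and Cyp7a1 (9.38, 11.06 and 10.55). For Csad this range held every 4 h and every 30 h array. Among genes with several probe sets that were called the same way, Ccnd1, which encodes cyclin D1, was picked out after its values were seen: it read 7.47, 7.63 and 7.23 at 4 h and 8.47, 8.88 and 8.14 at 30 h (1.06 ± 0.16, adjusted p = 0.000554), with both other probe sets called higher and a 16 h mean of 9.40. With the Gapdh covariate the differences were 3.43 for Csad, 2.25 for Nrep, 1.33 for Me1, 1.30 for Cyp7a1, 1.12 for Ppp1r3b and 0.98 for Ccnd1, against 0.085 for Col3a1, -0.04 for Abcc3, -0.05 for Tmed5 and -0.18 for Dusp6, and none was called.

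**Figure D2:**
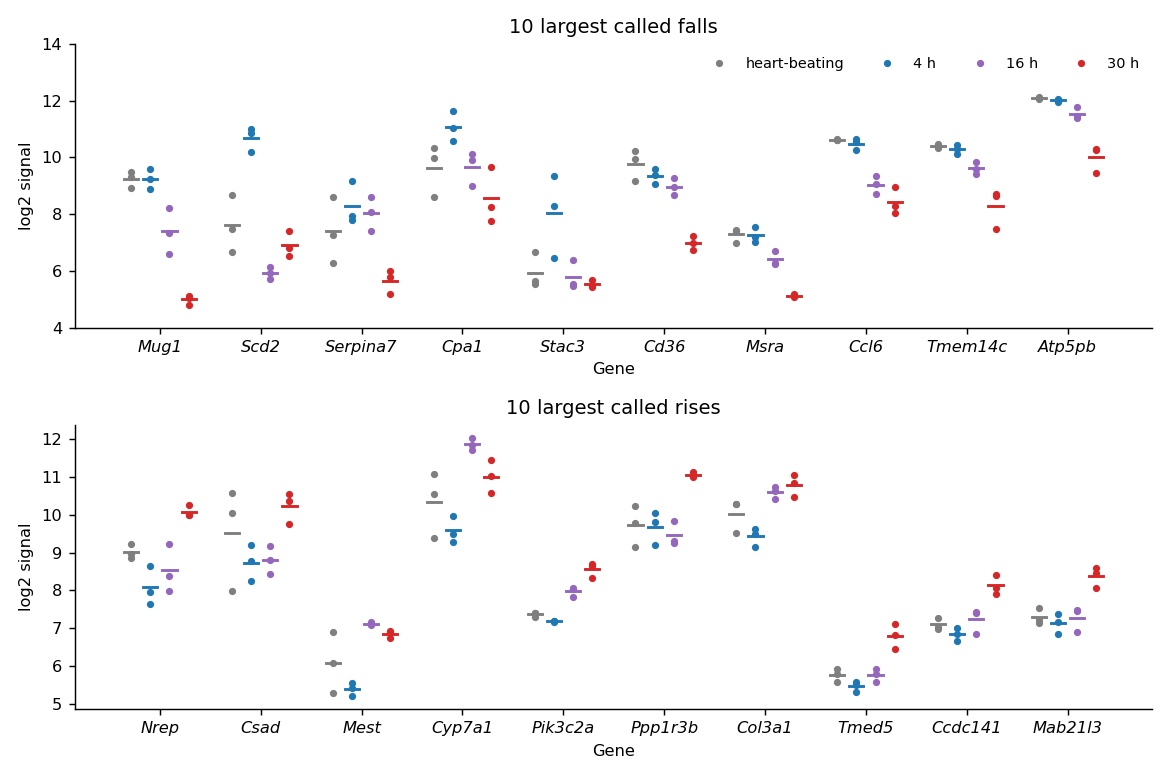
Log2 signal per array (dots, 1 per donor, 3 per group) and group mean (short lines) of the 10 largest called falls (top) and the 10 largest called rises (bottom) between 30 h and 4 h, with heart-beating donors and 16 h shown for reference. Mug1 steps down from 4 h to 30 h, whereas Scd2 and Stac3 are highest at 4 h; Cyp7a1 and Mest are highest at 16 h.

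In each list of mitochondrial genes described below, more members were called lower than higher. The short list of ketogenesis, a mitochondrial pathway, went the other way, with 1 of 3 genes called higher and 0 lower (median 0.06). In respiratory complexes II, III and IV, which pass electrons on to oxygen, 15 of 21 measured genes fell and none rose in limma's test, with a median difference of -0.41 against -0.0002 over all genes. At an unadjusted p under 0.05 the counts were 17 and 0. Besides Uqcrc2, Cox6a1 read 11.71, 11.73 and 11.65 at 4 h and 10.32, 10.83 and 10.78 at 30 h (-1.05 ± 0.11) and Cox5a read 9.23, 9.25 and 9.10 at 4 h and 8.04, 8.39 and 8.61 at 30 h (-0.85 ± 0.12), with no overlap of the times in either. In complex I, which takes electrons from NADH, 16 of 35 fell and 2 rose (median -0.25). Ndufb8 read 7.80, 7.96 and 7.98 at 4 h and 6.16, 6.46 and 6.51 at 30 h (-1.53 ± 0.10, adjusted p = 7.48e-06), and Ndufa8 fell by 0.84. The 2 that rose were Ndufb1 (0.37 ± 0.06) and Ndufb7 (0.34 ± 0.08). In the ATP synthase, 7 of 14 fell, Atp5pb and Atp5mg most, and the epsilon subunit gene Atp5f1e rose (0.34 ± 0.07, median of the list -0.28). Without 30 h animal 1 the list had 2 rises. Of 35 genes of membrane organisation and protein import, 15 fell and 5 rose (median -0.26). The falls included Micos13 and its partners in cristae, Apool (-0.99 ± 0.09) and Apoo (-0.72 ± 0.09). The rises included Mfn2 (0.41 ± 0.08) and Opa1 (0.32 ± 0.09), the GTPases that fuse the outer and the inner membrane. The call of Opa1 ended without 4 h animal 1 or 2 or 30 h animal 2 or 3, with differences from 0.25 to 0.32, and the list then had 3 rises without 30 h animal 2 or 4 h animal 1.

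Matrix pathways moved less uniformly. Of 19 genes of the tricarboxylic acid cycle and pyruvate dehydrogenase, 7 fell and 4 rose (median -0.13). Dld, the shared dehydrogenase of several matrix complexes, read 8.999, 9.13 and 9.06 at 4 h and 7.56, 8.36 and 8.41 at 30 h (-0.95 ± 0.17), and Suclg1 and Suclg2, subunits of succinyl-CoA ligase, fell by 1.20 and 0.75. Aco1, the cytosolic aconitase that doubles as an iron sensor, rose (9.59, 9.52 and 9.42 at 4 h and 10.12, 10.29 and 10.10 at 30 h, 0.66 ± 0.07). The 4 rises became 1 without 30 h animal 2 or 4 h animal 1 and 2 without 30 h animal 3. In fatty acid uptake and oxidation, 10 of 27 fell and 4 rose (median -0.16): Echs1, which hydrates enoyl-CoA, read 10.82, 10.85 and 11.06 at 4 h and 9.09, 10.02 and 9.82 at 30 h (-1.26 ± 0.18), and Hadh, the next enzyme of the cycle, fell by 1.21, whereas Eci1, an enoyl-CoA isomerase, rose (0.87 ± 0.13). Of 25 antioxidant genes, 10 fell and 3 rose (median -0.21). Gpx4, which reduces lipid peroxides, read 11.26, 11.44 and 11.35 at 4 h and 9.72, 10.47 and 10.26 at 30 h (-1.20 ± 0.15), Gsr, glutathione reductase, read 6.68, 6.83 and 6.72 at 4 h and 5.54, 5.76 and 5.86 at 30 h (-1.02 ± 0.09), and the peroxiredoxins Prdx3 and Prdx6 and the superoxide dismutase Sod2 fell by 0.86, 0.87 and 0.78. Thioredoxin reductase Txnrd1 rose (0.64 ± 0.10), though not when its probe sets were averaged (0.14). With the Gapdh covariate the medians of these mitochondrial lists turned positive (complex I 0.56, complexes II to IV 0.45, ATP synthase 0.40, membrane organisation and import 0.59, matrix cycle 0.66, fatty acid oxidation 0.37). That of the antioxidant list, which also holds genes of other compartments, did too (0.38). Single members differed: Apool (-1.11), Uqcrc2 (-0.66), Ndufb8 (-0.46) and Apoo (-0.30) stayed below 0, while Cox5a (0.19), Cox6a1 (0.21), Dld (1.05) and Suclg1 (1.31) were above it. No member was called, so the falls of these lists and the RNA integrity values of the same arrays cannot be told apart here.

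In the lists of the translation machinery and the proteasome, more genes fell than rose. Of 43 cytosolic ribosomal protein genes, 25 fell and none rose in limma's test (median -0.31), against 29 and 2 at an unadjusted p under 0.05. Rpl7 read 11.72, 11.77 and 11.95 at 4 h and 10.13, 10.55 and 10.92 at 30 h (-1.28 ± 0.16, with a second probe set lower), Rps16 read 11.63, 11.62 and 11.73 at 4 h and 10.18, 10.38 and 10.99 at 30 h (-1.14 ± 0.16) and Rpl41 read 11.81, 11.75 and 11.86 at 4 h and 10.67, 10.89 and 11.18 at 30 h (-0.90 ± 0.11). In all 3, every 30 h array was below every 4 h array. Of 74 mitochondrial ribosomal protein genes, 29 fell and 4 rose (median -0.22), with Mrpl17 at -1.04 ± 0.10 and Mrps33 at -1.05 ± 0.15. The 4 rises became 1 without 30 h animal 2 or 4 h animal 3, and 2 without 30 h animal 3 or 4 h animal 1. Of 41 initiation and elongation factors, 16 fell and 3 rose (median -0.13). Eif2s1, the alpha subunit of eIF2 that is phosphorylated in stress, read 8.48, 8.76 and 8.39 at 4 h and 7.01, 7.93 and 7.45 at 30 h (-1.08 ± 0.17), and Eef1b2 read 11.34, 11.35 and 11.37 at 4 h and 9.80, 10.27 and 10.82 at 30 h (-1.06 ± 0.18). The rises were the scaffold genes Eif4g1 (0.58 ± 0.12) and Eif4g3 (0.61 ± 0.13), and Eif1a (0.44 ± 0.12). None of the 3 was called when its probe sets were averaged, and Eif1a lost its call without 4 h animal 1 or 3 or 30 h animal 2 or 3 (0.33 to 0.41). Of 39 proteasome genes, 12 fell, among them Psmd10 (-0.54 ± 0.09), and 5 rose, among them Psma3 (7.73, 7.91 and 7.72 at 4 h and 8.30, 8.60 and 8.42 at 30 h, 0.65 ± 0.08), with a median of -0.10. With the Gapdh covariate the medians of these 4 lists were 0.34, 0.76, 0.59 and 0.61.

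Among chromatin regulators, splicing factors and autophagy genes, more members rose than fell. Of 66 chromatin regulators, 27 rose and 2 fell, with a median of 0.25. Ep300, a histone acetyltransferase and coactivator, read 8.55, 8.54 and 8.52 at 4 h and 9.43, 9.34 and 9.10 at 30 h (0.75 ± 0.08, adjusted p = 9.63e-05), and the histone deacetylase gene Hdac2 read 8.43, 8.72 and 8.49 at 4 h and 9.35, 9.59 and 9.14 at 30 h (0.81 ± 0.11). No array overlapped between the times in either gene. Arid1b, a subunit of the BAF remodelling complex, rose on its brightest probe set (0.58 ± 0.07), but 2 of its 5 others were called lower, and the mean of all was 0.14 and not called. The falls were Dnmt3a (-0.33 ± 0.08), which lost its call without 4 h animal 2 (-0.26), and Smarca5 (-0.31 ± 0.10), which lost it in 6 leave-out fits (without heart-beating animal 3, 4 h animal 1 or 3, 16 h animal 2 or 3, or 30 h animal 1, -0.31 to -0.19) and read 0.07 when its probe sets were averaged. Without any 1 of 4 h animals 1 to 3, 16 h animals 2 and 3 or heart-beating animal 3 the list had 1 fall. Of 68 splicing factors, 28 rose and 11 fell (median 0.18), and the falls became 6 without 30 h animal 1 or 4 h animal 2. Srsf11 rose (8.39, 8.48 and 8.57 at 4 h and 8.87, 9.15 and 8.98 at 30 h, 0.52 ± 0.08), with a second probe set called higher, while Sf3b5, a small subunit of the U2 particle, and Hnrnpr fell (-1.38 ± 0.15 and -0.99 ± 0.08). Of 30 autophagy genes, 11 rose and 3 fell (median 0.19). Atg5, which conjugates LC3 to membranes, read 7.94, 7.93 and 7.98 at 4 h and 8.57, 8.67 and 8.42 at 30 h (0.60 ± 0.07), and Atg9a read 8.03, 8.24 and 8.25 at 4 h and 8.76, 8.86 and 8.77 at 30 h (0.62 ± 0.08). The falls were Atg10 (-0.84 ± 0.11), Gabarap (-0.73 ± 0.15) and Bnip3 (-0.45 ± 0.12), the last not called without 4 h animal 2 (-0.40). With the probe sets of each gene averaged, the rises numbered 21 in chromatin regulators, 21 in splicing factors and 9 in autophagy genes, and with the Gapdh covariate the medians were 0.12, 0.42 and 0.46. Of 36 lysosomal genes, 15 fell and 3 rose (median -0.14).

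**Figure D3:**
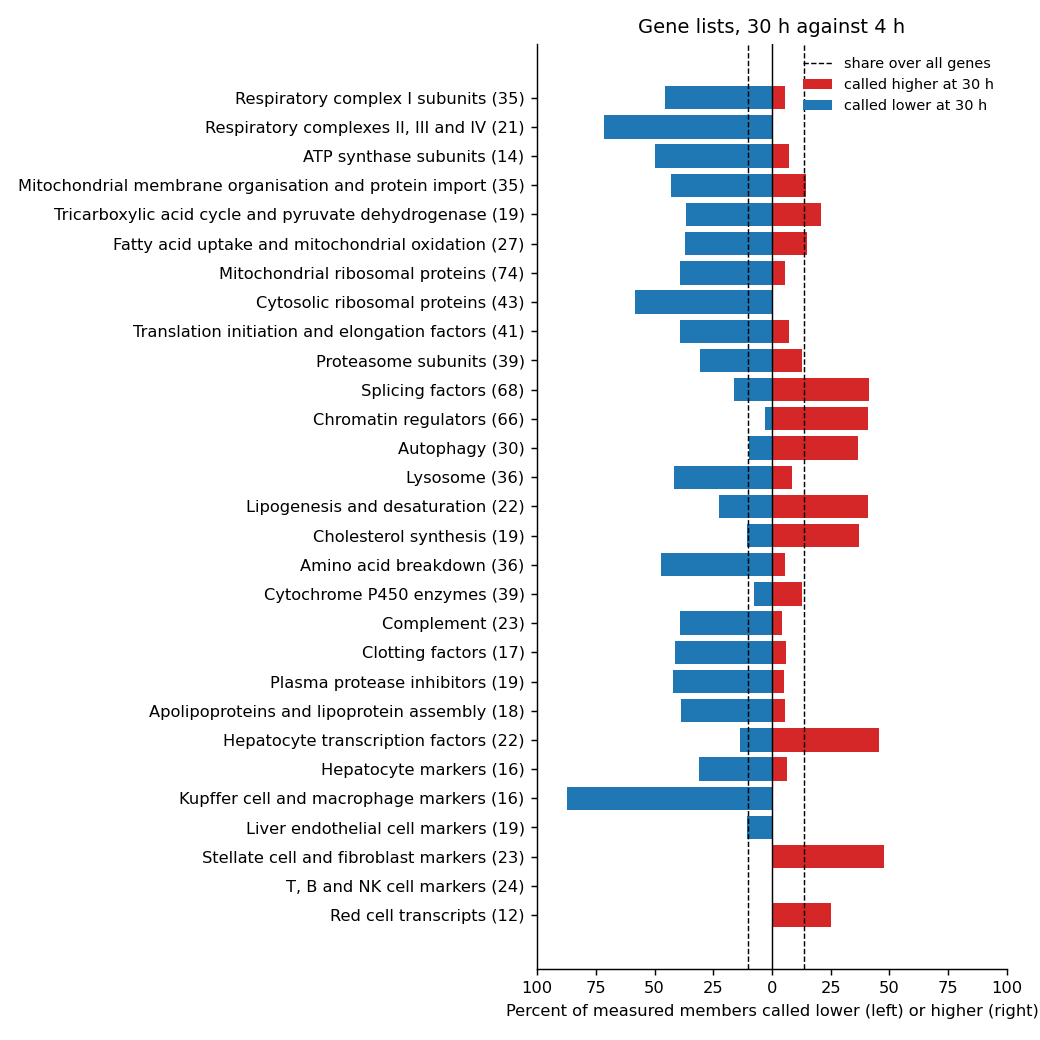
Percent of the measured members of each list (number in brackets) called lower (blue, left) or higher (red, right) at 30 h against 4 h, with dashed lines at the shares over all genes, 10.3% and 13.6%. These shares are not matched to the signal of a list, and bright genes were called more often than dim ones. Mitochondrial and ribosomal lists extend further to the left than to the right, chromatin regulators, splicing factors and stellate cell markers to the right, and Kupffer cell markers show the longest bar on the left (14 of 16).

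Genes of lipid synthesis changed in both directions. Of 22 genes of fatty acid synthesis, elongation, desaturation and triglyceride assembly, 9 rose and 5 fell, with a median of -0.01. Among the rises, Acly, which makes cytosolic acetyl-CoA, read 10.66, 10.91 and 10.71 at 4 h and 11.42, 11.64 and 11.20 at 30 h (0.66 ± 0.16), the desaturase Fads1 read 11.28, 11.23 and 11.29 at 4 h and 11.89, 12.08 and 11.81 at 30 h (0.66 ± 0.10), and Fads2 and the elongase Elovl2 rose by 0.79 and 0.74. No 30 h array of these 4 genes lay within the range at 4 h. Elovl6 (0.90 ± 0.27) and the synthase Fasn (0.43 ± 0.14) were called too, but each lost its call when single arrays were left out, Elovl6 without 4 h animal 1 or 3 or 30 h animal 2 or 3 (0.70 to 0.89) and Fasn without 4 h animal 1 or 3, 16 h animal 2, or 30 h animal 1 or 2 (0.33 to 0.46). The falls, beside Scd2, were the acyltransferases of triglyceride assembly Dgat1 (7.88, 8.11 and 8.001 at 4 h and 7.38, 7.57 and 7.51 at 30 h, -0.51 ± 0.08), Dgat2 (-0.45 ± 0.09), Agpat2 (-0.48 ± 0.09) and Thrsp, a thyroid hormone responsive nuclear protein (12.06, 12.07 and 11.84 at 4 h and 11.12, 11.35 and 11.12 at 30 h, -0.79 ± 0.09, with both other probe sets lower). Srebf1, the transcription factor that drives this program, read higher on 1 probe set (0.71 ± 0.16) and was called lower on the other, and its mean was -0.02.

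In cholesterol synthesis, 7 of 19 genes rose and 2 fell (median 0.25). Sc5d, a late desaturase of the pathway, read 10.44, 10.59 and 10.58 at 4 h and 11.23, 11.53 and 11.21 at 30 h (0.79 ± 0.13), Tm7sf2, a sterol reductase, read 10.78, 10.83 and 10.90 at 4 h and 11.35, 11.56 and 11.30 at 30 h (0.56 ± 0.12) and Dhcr7, the last reductase, read 10.67, 10.94 and 10.95 at 4 h and 11.38, 11.63 and 11.29 at 30 h (0.58 ± 0.14). The 3 genes were higher in every 30 h animal, although Sc5d was not called with the mean of its 3 probe sets (0.20). The other 4, Idi1 (0.89 ± 0.30), Lss (0.58 ± 0.19), Mvd (0.55 ± 0.19) and Ebp (0.27 ± 0.09), had adjusted p-values from 0.0384 to 0.0475, and each was lost in 5 to 7 of the 12 fits that left out an array. The count of rises was therefore 3 without 4 h animal 1, 4 h animal 3, 16 h animal 3 or 30 h animal 2, and 4 without 30 h animal 3 or heart-beating animal 1. The falls were Fdps, which makes farnesyl diphosphate (11.63, 11.92 and 11.42 at 4 h and 10.36, 10.96 and 10.74 at 30 h, -0.97 ± 0.18), and Srebf2, the main regulator of the pathway (-0.35 ± 0.06). Srebf2 was not called when its probe sets were averaged (-0.15).

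Genes of sterol and fatty acid synthesis are known to carry, near the start site, binding sites for SREBP together with a CCAAT box for the cofactor NF-Y, so the promoters of 4 genes that rose together are shown as context. They are RefSeq promoters of the GRCr8 build, read 5′ to 3′ on the strand of the gene from 250 bases before to 50 bases after the start, with CCAAT or its reverse complement ATTGG in capitals. They lie at chr8:51538228-51538527 (minus strand) for Sc5d, chr1:212789492-212789791 (minus strand) for Tm7sf2, chr1:216252442-216252741 (plus strand) for Fads1 and chr1:208444184-208444483 (plus strand) for Dhcr7.
Sc5d: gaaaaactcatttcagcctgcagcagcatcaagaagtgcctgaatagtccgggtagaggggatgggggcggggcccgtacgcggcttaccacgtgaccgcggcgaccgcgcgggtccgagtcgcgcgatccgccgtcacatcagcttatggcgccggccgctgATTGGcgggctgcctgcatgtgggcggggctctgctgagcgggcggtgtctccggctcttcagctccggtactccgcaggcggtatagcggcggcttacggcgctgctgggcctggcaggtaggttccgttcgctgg
Tm7sf2: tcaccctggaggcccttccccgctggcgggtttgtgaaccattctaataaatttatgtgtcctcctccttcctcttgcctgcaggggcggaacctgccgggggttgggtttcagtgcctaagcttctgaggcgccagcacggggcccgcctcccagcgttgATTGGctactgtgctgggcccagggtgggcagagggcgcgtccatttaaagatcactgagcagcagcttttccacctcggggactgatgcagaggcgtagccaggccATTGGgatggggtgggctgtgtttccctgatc
Fads1: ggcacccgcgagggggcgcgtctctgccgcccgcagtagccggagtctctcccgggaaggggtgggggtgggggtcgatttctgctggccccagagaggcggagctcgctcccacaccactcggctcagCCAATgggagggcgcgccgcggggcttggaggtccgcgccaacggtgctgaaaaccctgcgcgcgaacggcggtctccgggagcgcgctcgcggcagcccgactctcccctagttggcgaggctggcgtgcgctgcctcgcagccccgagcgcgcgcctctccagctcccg
Dhcr7: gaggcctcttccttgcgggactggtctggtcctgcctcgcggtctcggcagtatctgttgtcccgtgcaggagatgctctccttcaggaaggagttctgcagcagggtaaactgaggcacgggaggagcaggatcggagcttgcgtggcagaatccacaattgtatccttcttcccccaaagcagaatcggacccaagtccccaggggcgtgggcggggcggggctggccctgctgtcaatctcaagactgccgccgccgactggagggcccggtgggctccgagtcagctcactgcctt
Counted from the start at 0, with bases before it negative, the match begins at -87 in Sc5d, at -89 and at 18 in Tm7sf2 and at -121 in Fads1. Dhcr7 has none in this window. Of 16 cholesterol synthesis genes with 1 promoter in the table, 14 held at least 1 match (87.5%). Among those called higher it was 6 of 7 (85.7%). These 7 are part of the 16, nearly all of which held a match, so the shares cannot show whether a match went with a rise. The share was 37.5% of all 33469 promoters, which include those of genes with several. It was 64.3% in lipogenesis and desaturation, 43.2% in chromatin regulators, 33.3% in complex I and 21.1% in cytosolic ribosomal proteins. Over all called genes with 1 promoter in the table, in a list or not, it was 35.5% among 1518 called higher and 40.5% among 1148 called lower. A match is a description of the sequence and no evidence that the factor was bound.

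Genes of bile acid and drug metabolism changed in both directions. Of 39 cytochrome P450 genes, 5 rose and 3 fell (median 0.14), a share of calls under that of all genes. Beside Cyp7a1, the xenobiotic and fatty acid hydroxylases Cyp1a2 (12.21, 12.08 and 11.82 at 4 h and 12.61, 12.54 and 12.62 at 30 h, 0.55 ± 0.10) and Cyp4a1 (0.55 ± 0.09) rose. Cyp8b1, which sets the share of cholic acid downstream of Cyp7a1, read 10.81, 11.52 and 10.78 at 4 h and 9.58, 10.12 and 10.50 at 30 h (-0.97 ± 0.26), Cyp2c23 fell (-0.60 ± 0.10) and Cyp2e1, the ethanol-inducible form, read 13.53, 13.57 and 13.59 at 4 h and 13.10, 13.40 and 13.35 at 30 h (-0.28 ± 0.08). The call of Cyp8b1 ended without 4 h animal 2 or 30 h animal 1 (-0.73 for both), and that of Cyp2e1 without 4 h animal 2 or 3 or 30 h animal 1 (-0.28 to -0.19) and after cyclic loess (-0.08) or a further quantile normalization (-0.19). Without 4 h animal 2 or 30 h animal 1 the list had 1 fall. Of 25 genes of bile acid handling and transport, 5 rose and 2 fell (median 0.10), a share of calls of 28%, near the 23.9% of all genes. Nr1h4, the bile acid receptor FXR, rose (8.98, 9.15 and 9.05 at 4 h and 9.33, 9.54 and 9.78 at 30 h, 0.49 ± 0.10), and Slc10a1, the uptake transporter NTCP, fell (12.33, 12.29 and 12.40 at 4 h and 11.81, 12.02 and 11.88 at 30 h, -0.44 ± 0.07). Of 33 conjugating enzymes, 10 fell and 3 rose (median -0.07), with Gstz1, which also acts in tyrosine breakdown, at -1.14 ± 0.10.

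In amino acid breakdown, a main task of hepatocytes, 17 of 36 measured genes fell and 2 rose (median -0.38). Tdo2, the first enzyme of tryptophan breakdown, read 12.54, 12.53 and 12.32 at 4 h and 10.93, 11.41 and 11.67 at 30 h (-1.13 ± 0.16), and Ftcd of histidine breakdown read 11.76, 11.97 and 11.93 at 4 h and 10.71, 11.09 and 11.22 at 30 h (-0.88 ± 0.13). At 16 h Tdo2 was still at 12.60. Pemt, which methylates phosphatidylethanolamine, read 10.82, 10.77 and 10.74 at 4 h and 8.77, 9.78 and 9.44 at 30 h (-1.45 ± 0.18). Fbp1, an enzyme of glucose synthesis, fell by 1.08, and Ldha, lactate dehydrogenase, by 1.12, both named after their values were seen. In the lists they belong to, 3 of 11 genes of glucose synthesis fell and 1 rose (median -0.25, 2 rises without 16 h animal 3 or 30 h animal 3), and 4 of 13 of glycolysis fell and none rose in limma's test (median -0.0032, but 0.0017 after cyclic loess), against 5 and 0 at an unadjusted p under 0.05, with 1 rise without 30 h animal 1. With the Gapdh covariate the median of the amino acid list was 0.29.

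Secreted proteins of the liver fell in part. Of 19 plasma protease inhibitors, 8 fell and 1 rose (median -0.21), Mug1 and Serpina3m (10.46, 10.59 and 11.02 at 4 h and 9.19, 9.53 and 9.69 at 30 h, -1.22 ± 0.16) most. Most of those falls were small, and the count was 3 without 30 h animal 1 or 4 h animal 3 and 4 without 4 h animal 1. Of 23 complement genes, 9 fell and 1 rose (median -0.23). Mbl1, a mannose-binding lectin, read 9.81, 9.93 and 9.90 at 4 h and 8.30, 8.84 and 8.79 at 30 h (-1.24 ± 0.13), while its partner protease Masp1 rose (0.78 ± 0.11). Without 4 h animal 1 or heart-beating animal 1 there were 2 rises. Of 17 clotting factors, 7 fell and 1 rose (median -0.11, but 0.06 after a further quantile normalization), with prothrombin, F2, at 12.81, 12.72 and 12.83 at 4 h and 11.51, 12.0003 and 12.13 at 30 h (-0.91 ± 0.12). Its single rise was lost in 9 leave-out fits, those without heart-beating animal 1, 2 or 3, 4 h animal 1 or 2, 16 h animal 2 or 3, or 30 h animal 1 or 2. Of 18 apolipoproteins and assembly genes, 7 fell and 1 rose (median -0.13, but 0.07 after cyclic loess), with Apoa5, which regulates plasma triglycerides, at 11.34, 11.28 and 11.49 at 4 h and 9.88, 10.54 and 10.31 at 30 h (-1.13 ± 0.14). The list had 3 rises without 30 h animal 1. Crp, an acute phase protein, read 12.68, 12.65 and 12.37 at 4 h and 10.87, 11.52 and 11.46 at 30 h (-1.28 ± 0.15), and Hamp, the iron hormone hepcidin, fell by 0.92. The plasma carriers, with 3 falls among 18 (5 without 30 h animal 3) and none higher, had a share of calls under that of all genes.

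Transcription factors of the hepatocyte rose more often than they fell, with 10 of 22 higher and 3 lower (median 0.33). Onecut2 read 8.73, 8.94 and 8.999 at 4 h and 9.77, 9.63 and 9.72 at 30 h (0.82 ± 0.11), with 2 other probe sets higher. Hnf4a, a master regulator of hepatocyte genes, rose on its brightest probe set (10.35, 10.12 and 9.93 at 4 h and 11.08, 11.28 and 10.96 at 30 h, 0.98 ± 0.11), but its 2 others were called lower and its mean was -0.13. Cebpa (0.78 ± 0.16) had 2 other probe sets higher and 1 lower, and was not called with the mean of all (0.36). Thrb, the thyroid hormone receptor beta (0.38 ± 0.07), had 1 lower and a mean of -0.003. The falls were Nr5a2 (-0.42 ± 0.08), Rxra (-0.41 ± 0.11) and Foxa3 (-0.46 ± 0.15). The call of Rxra ended without 4 h animal 1 or 3 or 30 h animal 1 (-0.38 to -0.30), and that of Foxa3 without any 1 of the 4 h or 30 h animals or 16 h animal 2 (-0.49 to -0.42). The list had 1 fall without 30 h animal 1 or 4 h animal 3. With the mean of all probe sets, 6 rose and 3 fell (median 0.11).

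Among stress and signalling lists, the immediate early, apoptosis and clock lists had shares of calls under the 23.9% of all genes, and the heat shock, NRF2 and iron and heme lists had shares above it. Of 38 immediate early genes, 1 rose (Dusp6) and 3 fell (median -0.06). Fos, a subunit of the AP-1 factor, read 5.11, 6.78 and 8.36 at 4 h and 5.80, 4.89 and 5.09 at 30 h, with a spread at 4 h wider than the difference of -1.49 ± 0.57 (adjusted p = 0.0775), and it was called only without 4 h animal 1 (-2.31) among the fits run. The antiproliferative gene Btg1 fell (12.02, 11.52 and 11.68 at 4 h and 10.87, 11.28 and 10.89 at 30 h, -0.73 ± 0.17). Without 4 h animal 3 the list had 1 fall and 2 rises, and it had 2 rises without 16 h animal 1 or heart-beating animal 2. Of 32 apoptosis genes, 3 rose and 2 fell (median -0.05), and the rises were none or 1 without 4 h animal 1 or 3 or 30 h animal 1 or 2. The death receptor gene Fas fell (6.20, 6.54 and 6.44 at 4 h and 5.18, 5.52 and 5.28 at 30 h, -1.07 ± 0.11). Of 33 heat shock genes, 5 rose and 6 fell, with the regulator Hsf1 at 0.45 ± 0.08, and the rises were 3 without 30 h animal 2 or 3 or 4 h animal 1 or 3. Hmox1, the inducible heme oxygenase, read 8.03, 7.77 and 7.82 at 4 h and 7.38, 7.52 and 7.68 at 30 h (-0.35 ± 0.09) and was not called without 4 h animal 1 (-0.27). In the list of the antioxidant regulator NRF2 and its stress targets, 5 of 20 rose and 4 fell (median -0.03), and 2 rose and 4 fell with probe sets averaged. Its gene Nfe2l2 fell by 0.63 and the target Nqo1 by 0.83, while the rises included the targets Me1 and Abcc3. Of 29 genes of iron handling and heme synthesis, 9 rose and 6 fell (median -0.05), with 5 rises without 30 h animal 2. Tmem14c and Hamp fell most. Alas1, the first enzyme of heme synthesis in liver, rose (9.45, 9.77 and 9.38 at 4 h and 10.41, 10.44 and 10.93 at 30 h, 1.06 ± 0.14), as did Blvrb, which reduces biliverdin (0.54 ± 0.08). In the circadian clock, 2 of 17 rose and 1 fell (median -0.13). Cry1, a repressor of the clock, read 7.09, 7.26 and 6.95 at 4 h and 7.53, 8.22 and 8.26 at 30 h (0.90 ± 0.23) with a 16 h mean of 5.96, and Bmal1, its activator, read 7.33, 7.38 and 7.45 at 4 h and 6.71, 7.16 and 6.90 at 30 h (-0.47 ± 0.13) with a 16 h mean of 6.17. Bmal1 was not called without 4 h animal 3 (-0.43) or 30 h animal 1 (-0.36), where the list had no fall (2 without heart-beating animal 2), and it had 1 rise without 30 h animal 2 or 3 or 4 h animal 1 or 3.

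Among markers of other liver cells, the largest shares of calls were in Kupffer cell markers, nearly all lower, and in stellate cell markers, where those called were higher. Of 16 measured Kupffer cell and macrophage markers, 14 fell and none rose in limma's test, with a median of -0.79, against 15 and 0 at an unadjusted p under 0.05. Adgre1, which encodes the surface marker F4/80, read 6.50, 6.03 and 6.08 at 4 h and 4.76, 4.80 and 4.64 at 30 h (-1.47 ± 0.15, adjusted p = 8.15e-05), Cybb, the NADPH oxidase of phagocytes, read 8.73, 8.37 and 8.54 at 4 h and 7.04, 7.08 and 7.54 at 30 h (-1.32 ± 0.16) and Cd5l read 10.43, 9.98 and 10.01 at 4 h and 8.82, 9.08 and 9.26 at 30 h (-1.09 ± 0.12). The times did not overlap in any of these, and a second probe set of Cybb and of Cd5l was called lower. For Adgre1 the 30 h values were dim, under the median signal of every array (5.83 to 5.90). Clec4f, a lectin specific to rodent Kupffer cells, fell less (10.21, 9.88 and 10.02 at 4 h and 9.53, 9.28 and 9.77 at 30 h, -0.51 ± 0.11), and the complement component C1qb, made by these cells, fell by 1.24. The 2 not called were Cd14 (10.08, 10.05 and 10.16 at 4 h and 9.76, 9.96 and 9.78 at 30 h, -0.27 ± 0.10, adjusted p = 0.063), which was called without 16 h animal 3 (-0.27) or 30 h animal 2 (-0.33), and lysozyme Lyz2 (9.69, 9.55 and 9.64 at 4 h and 9.71, 9.80 and 9.45 at 30 h, 0.022 ± 0.12). Summed over the list on the linear scale, the 4 h arrays ranged from 8612 to 10640 and the 30 h arrays from 5345 to 6158. With the Gapdh covariate the median was -0.33, nearer 0 than without it. This was not particular to Kupffer cells. The endothelial (-0.47), T, B and NK cell (-0.36) and cholangiocyte (-0.30) medians were also below 0 with the covariate, and that of hepatocyte markers was 0.20. In such bulk RNA, fewer cells of a type and less RNA in each cell cannot be told apart.

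Of 23 stellate cell and fibroblast markers, 11 rose and none fell in limma's test (median 0.33), against 12 and 1 at an unadjusted p under 0.05. Beside Col3a1, Col1a2 read 6.86, 6.79 and 7.15 at 4 h and 8.08, 7.94 and 7.48 at 30 h (0.90 ± 0.16, with a second probe set higher), Col1a1 rose by 0.79, Col6a1 read 7.33, 7.38 and 7.47 at 4 h and 8.27, 8.08 and 7.78 at 30 h (0.65 ± 0.11), and Pdgfra, a growth factor receptor of these cells, read 7.86, 7.73 and 7.70 at 4 h and 8.61, 8.48 and 8.20 at 30 h (0.67 ± 0.09). The contractile and filament markers Acta2 (-0.14 ± 0.10, adjusted p = 0.353) and Des (-0.12 ± 0.07, adjusted p = 0.244) were not called. The summed signal ranged from 4823 to 5523 on the 4 h arrays and from 6564 to 8664 on the 30 h arrays, while the list median was -0.27 with the Gapdh covariate. Of 19 endothelial markers, 2 fell and none rose in limma's test, a share of 10.5%, under the 23.9% of all genes. They were Dnase1l3 (10.001, 10.04 and 10.30 at 4 h and 9.56, 9.86 and 9.44 at 30 h, -0.49 ± 0.12) and Gpr182 (-0.28 ± 0.08), the second not called without 4 h animal 3 or 30 h animal 2 or 3 (-0.26 to -0.25). The endothelial receptor Kdr differed by -0.15 ± 0.16 (adjusted p = 0.557). Without 30 h animal 3 the list had 1 fall. None of 11 cholangiocyte markers (Krt19 0.019 ± 0.06) and none of 24 T, B and NK cell markers was called by limma. At an unadjusted p under 0.05 the counts were 0 and 3, and 1 lymphocyte marker was called lower without 30 h animal 1. Of 16 hepatocyte markers, 5 fell and 1 rose (median -0.12, but 0.10 after cyclic loess). The falls included both subunits of the asialoglycoprotein receptor, Asgr1 (10.20, 10.26 and 10.25 at 4 h and 8.72, 9.36 and 9.53 at 30 h, -1.03 ± 0.17) and Asgr2 (-1.11 ± 0.16), and the rise was Hnf4a (2 rises without 30 h animal 1). The share of calls was 37.5%, against 23.9% of all genes, but the list was bright, with a lowest 4 h mean of 9.88. With all genes split by mean signal into 5 groups of equal size, 23% rose and 23.9% fell in the brightest (8.287 to 14.5). Whether hepatocyte markers differed from genes of like signal was not tested.

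Red cell transcripts varied between animals within both times. Hbb, a beta globin, read 13.38, 12.77 and 11.59 at 4 h and 13.66, 13.21 and 13.49 at 30 h (0.87 ± 0.32, adjusted p = 0.063), and Hba-a3, an alpha globin, read 12.07, 11.36 and 10.43 at 4 h and 12.68, 11.86 and 12.23 at 30 h (0.97 ± 0.31, adjusted p = 0.036). The third 4 h animal was the lowest and the first the highest of its group in both. Hbb was called without 4 h animal 1 (1.27), and Hba-a3 was not called without 4 h animal 2 or 3, 16 h animal 2, or 30 h animal 1 or 3 (0.54 to 1.01). Of 12 markers 3 rose (25%, near the 23.9% called of all genes), the others being Ahsp, the alpha globin chaperone (6.24, 6.12 and 5.86 at 4 h and 6.78, 6.45 and 6.70 at 30 h, 0.57 ± 0.11), and Bpgm (0.67 ± 0.18, not called without 30 h animal 1, 0.59). The count was 5 without 4 h animal 1 and 1 without 30 h animal 1, and the summed signal of 5402 to 16390 at 4 h overlapped that of 14480 to 21380 at 30 h. Of 13 neutrophil and platelet markers, 2 fell and 1 rose, a share of 23.1%, close to that of all genes. S100a9, a calcium-binding protein of neutrophils, read 7.27, 6.24 and 5.95 at 4 h and 5.39, 5.41 and 5.58 at 30 h (-1.03 ± 0.26), with 4 h animal 1 the highest. The list had 1 fall without heart-beating animal 1 or 3 or any 1 of the 16 h or 30 h animals, and 2 rises without 4 h animal 2. Cpa1 was the only gene called among 19 pancreatic and mesothelial markers in the fit of all arrays, and 1 marker was called higher without 30 h animal 1.

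**Figure D4:**
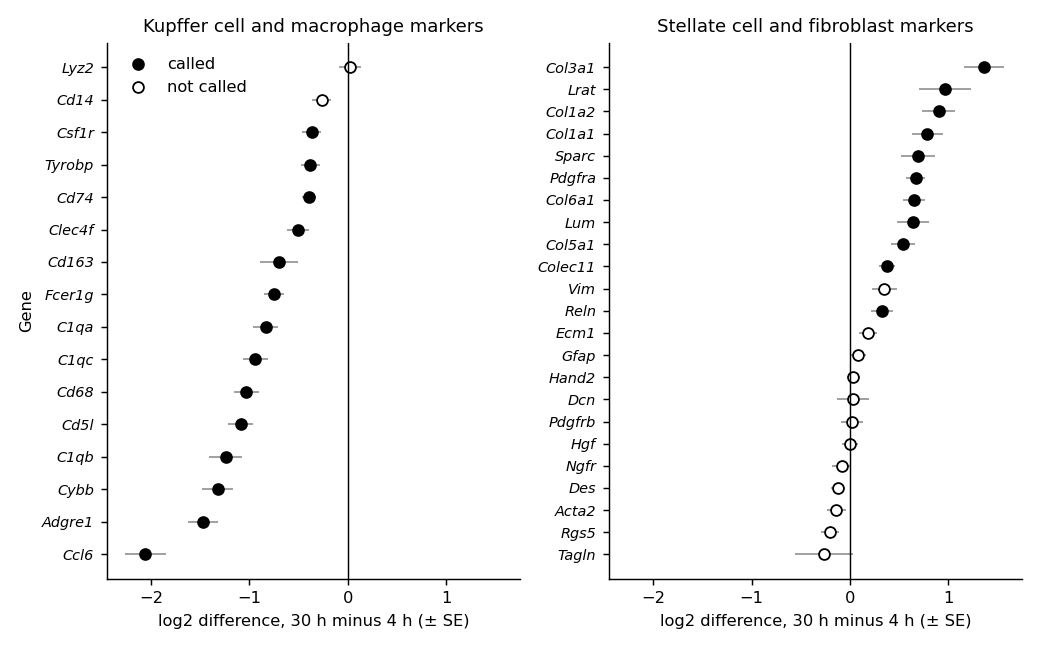
Log2 difference between 30 h and 4 h (horizontal axis, with its SE as a grey bar) for each measured Kupffer cell and macrophage marker (left) and stellate cell and fibroblast marker (right), with filled points for called genes. Among the Kupffer cell markers 14 of 16 are called and lie below 0, and among the stellate cell markers 11 of 23 are called and lie above 0.

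Probe sets of the same gene often differed. Among 4525 genes with 2 or more probe sets, the brightest was called in 1298. The second brightest was called the same way in 256 of these, the opposite way in 162 and not called in 880. Falls and rises were unlike in this respect: of 386 genes whose brightest probe set fell, the second fell in 99 and rose in 27, whereas of 912 genes whose brightest rose, the second rose in 157 and fell in 135. The difference between the 2 brightest probe sets was itself called in 1585 genes (35.03%). Genes described above whose further probe sets were called in the same direction, with none opposite, include Scd2, Uqcrc2, Rpl7, Thrsp, Cybb and Cd5l among the falls and Me1, Dusp6, Col1a2, Onecut2 and Ccnd1 among the rises.

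Direction also went with the length of a gene. Genes were split by their span in the GRCr8 annotation, from first to last base with introns, into 5 groups of equal size. Among the 2834 genes with the shortest span 6.18% rose and 14.5% fell, with a median difference of -0.05. Among the 2834 with the longest span 18.6% rose and 6.1% fell, with a median of 0.03. The shares changed in the same order through the 3 groups between. Split by mean signal in the same way, 2.25% rose and 2.88% fell among the dimmest genes, against 23.0% and 23.9% among the brightest. In the group below the brightest, rises (22.7%) were more frequent than falls (11.2%). Where a probe set was designed on a RefSeq transcript, 6.86% of 2375 genes rose and 14.2% fell, and where it was designed on another GenBank entry, 14.9% of 11842 rose and 9.47% fell. The lists differed in span as well: the median was 22338 bases over all genes with a span, 3526 for cytosolic ribosomal proteins, 6652 for mitochondrial ribosomal proteins, 7169 for complex I, 15245 for splicing factors and 77715 for chromatin regulators. It was 5614 for Kupffer cell markers and 18422 for stellate cell markers. Signal differed between lists too. The lowest 4 h mean of a member was 9.20 in complexes II, III and IV and 3.87 in cytosolic ribosomal proteins. Shares over all genes are therefore not matched to the signal of a list. The part of span, signal and probe design in the calls and direction of a list was not tested.

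**Figure D5:**
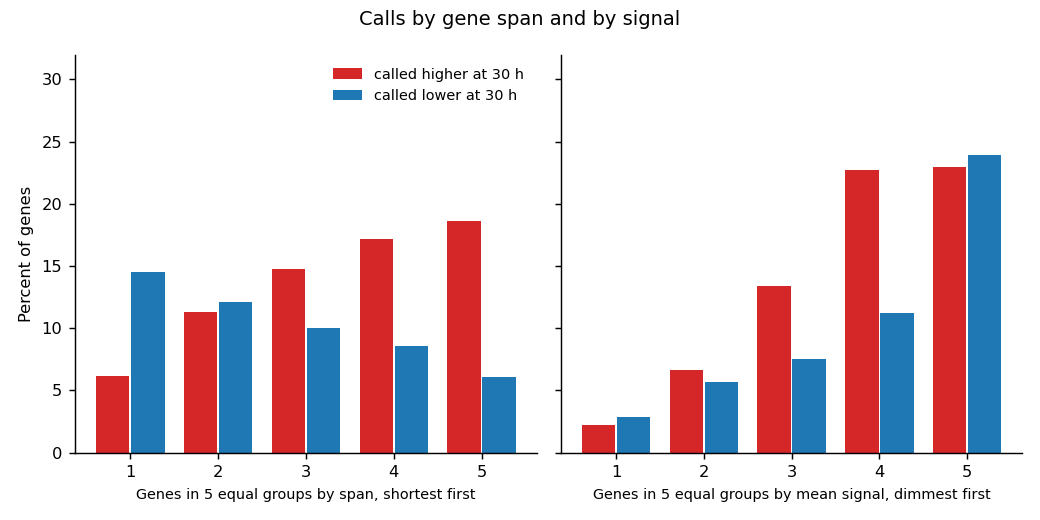
Percent of genes called higher (red) or lower (blue) at 30 h against 4 h in 5 groups of equal size by gene span (left, shortest first) and by mean log2 signal over 12 arrays (right, dimmest first). Falls go from 14.5% to 6.1% and rises from 6.18% to 18.6% with increasing span.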

How the data were processed

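Total RNA of 12 donors was labelled and hybridised to Affymetrix rat arrays, 1 per animal. The deposited log2 values were made by the authors with RMA, per the submitters' processing notes, which also name limma; no version or setting is given in the sources used here. No counts underlie the values, so the number of arrays limits precision. The table held 31099 probe sets, 57 of them controls; 20826 carried 1 symbol in the platform table and 20758 matched GRCr8 gene names. Each of 14217 genes was represented by its brightest probe set over 12 arrays. Group means of all 4 groups were fitted in R 4.3.3 with limma 3.58.1 (lmFit, eBayes; 8 residual and 4.89 prior degrees of freedom), adjusted over all genes by Benjamini-Hochberg. Control probe sets were compared with an exact two-sided permutation test. On simulated data of 14217 genes the test called 64 of 100 genes moved by 0.5 and 99 of 100 moved by 1, with 7 false calls. Far fewer genes moved there than the 3391 called here, so these rates need not hold for this comparison.

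The comparison and the lists were chosen with earlier results of these data known. Genes named are the 15 largest called rises and falls without overlap of the arrays, up to 4 list members with the smallest p, and Alb, Fos, Cps1, Cyp2e1, Hmox1, Gapdh and Actb. Other names, among them single list members that moved against their list, were chosen after their values were seen. Alternatives were 3 further normalizations, the upper 50% of genes by signal, other uses of probe sets, other variance settings and array weights, fewer groups, a replicate block, a Gapdh covariate and leaving out each array.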

Additional observations from a re-analysis of the deposited data

Results flagged for a closer look

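The platform table gives some probe sets more than 1 symbol and others none, and these took no part in the gene comparison. Of these 10216 probe sets, 1090 (10.7%) were called between 30 h and 4 h in the same model, 713 higher and 377 lower, and 70 of them changed at least 2-fold. The signal lies in data that the comparison of genes does not use, and its share of calls was under the 23.9% of the named genes.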

How the results depend on the processing

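The values are those of 6 animals, and RNA integrity differed between the times in every pair of arrays, so the counts describe these libraries as normalised, and the number of arrays limits their precision. With the Gapdh 3′ to 5′ value of each array as a covariate, 0 genes were called (0 higher, 0 lower, 0 at least 2-fold in either direction). Of 154 named genes called in the main model, 55 changed sign with it: falls that became positive were Apoa5 0.0041, Nfe2l2 0.033, Psmd10 0.044, Atg10 0.055, Rpl41 0.075, Crp 0.076, Qdpr 0.080, Dgat1 0.11, Atp5pb 0.15, Dgat2 0.15, Rps16 0.16, Fdps 0.17, Mbl1 0.18, Cox5a 0.19, Agpat2 0.19, Cox6a1 0.21, F2 0.21, Prdx3 0.22, Sf3b5 0.22, Pemt 0.25, Cyp2e1 0.26, Ftcd 0.26, Atp5mg 0.32, Ldha 0.35, Tdo2 0.36, Gpx4 0.38, Rpl7 0.39, Suclg2 0.40, Smarca5 0.42, Echs1 0.47, Prdx6 0.47, Sod2 0.48, Eif2s1 0.59, Eef1b2 0.62, Bnip3 0.65, Asgr1 0.69, Fbp1 0.69, Mrps33 0.70, Hadh 0.71, Tmem14c 0.75, Gabarap 0.85, Dld 1.05, Suclg1 1.31 and Cyp8b1 1.58, and rises that became negative were Hba-a3 -0.55, Masp1 -0.38, Col1a1 -0.21, Dusp6 -0.18, Col1a2 -0.10, Fads2 -0.054, Tmed5 -0.050, Bpgm -0.042, Abcc3 -0.040, Pdgfra -0.017 and Hsf1 -0.0067. The cause was not tested. Of the 56 lists, 41 had a median below 0, of which 33 were above 0 with the covariate, and 15 had a median above 0, of which 4 were below 0 with it.

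Taking every probe set on its own gave 4796 calls, with 2328 lower, 300 at least 2-fold, 63 of these higher and 237 lower, since more features were tested. The mean of all probe sets turned Cps1 -0.83, Hnf4a -0.13, Srebf1 -0.015, Thrb -0.0029 and Smarca5 0.073, and cyclic loess turned Alb (0.24). Leaving out 1 array at a time gave 2657 to 3360 calls (1475 to 1937 higher, 1078 to 1446 lower), 102 to 204 at least 2-fold, 27 to 57 at least 2-fold higher and 61 to 147 at least 2-fold lower. Of the 154 genes, 133 kept their call in all 12 of these fits, and 122 of them also in the 11 other settings run beside the covariate. The fit of the 6 arrays alone gave 2426 calls, 2376 of them shared with the fit of 12 arrays. The animal numbers of the labels did not pair the samples, with correlations of same-numbered arrays of 0.11, 0.11 and -0.25, and a replicate block on them gave 3127 calls, 3060 shared with the main model.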
